A study of Homo sapiens with 8 samples.

Results

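Some exon-exon junctions of the human transcriptome cannot be placed at a single address. In an RNA-seq experiment on HEK293 cells, a human embryonic kidney cell line, 768 of the 654181 splice junctions found in 8 libraries were listed in the reference annotation, had no uniquely mapped read in any library, and had at least 20 multi-mapped reads over the 8 libraries. They were chosen by these read counts, so the absence of unique reads and the total of multi-mapped reads are the rule itself and not findings. A multi-mapped read is one whose best alignment is found at more than 1 place in the genome. The libraries came from cells given DMSO, the solvent control (4 libraries, numbered 9 to 12), or 25 nM LMI070 (4 libraries, numbered 13 to 16), with no other allele or agent named. LMI070 is a small-molecule splicing modulator developed to raise inclusion of exon 7 of SMN2. Sequencing lane was balanced, with 2 libraries of each group in lane 7 and 2 in lane 8. Whether the 4 libraries of each group were grown separately is not stated, so p-values measure only the spread between these libraries, which may be technical.

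A splice junction is counted from reads that cross it. A read that matches 2 gene copies equally well is reported at both, so recent segmental duplications, tandem repeats inside a gene and pseudogenes that keep their introns all carry junctions whose reads have no single address. Human segmental duplications are concentrated in a few chromosome arms and hold expanded gene families such as NBPF, NPIP and TBC1D3, together with the disease genes SMN1 and SMN2. A different route to an ambiguous junction read is an overhang of only a few bases, where the short end of the read fits another exon as well.

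Junction counts of each library were 20369466 to 36131054 by unique mapping and 533124 to 944476 by multi-mapping, where a read is counted at each of its addresses. Of the 8 HEK293 markers examined, 7 had a median of at least 1 CPM (counts per 1000000 scaled junction reads of the library), as had 2 of 3 fibroblast markers (COL1A1 and COL3A1). None of the 3 blood and none of the 3 hepatocyte markers did. Between pairs of libraries of a group, over junctions with a mean of 20 reads or more, the chi-square per degree of freedom lay between 1.16 and 3.18, and over the members between 1.04 and 2.27, where counting noise alone gives 1.

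Members that list the same multi-mapped count in each of the 8 libraries were joined into a copy group, and the 768 junctions formed 651 groups. Of these, 548 held 1 member, 92 held 2, 8 held 3 and 3 held 4. In 107 groups a further annotated junction outside the rule listed the same 8 counts. For 443 groups with 1 member no other junction had the same counts, and 191 of the 443 had a junction within 1 read of theirs in every library. A copy group is a set of addresses for the same reads, so its count was used once in the tests of level and share. Junctions outside the rule with the same counts stayed as rows of their own in the level test. Groups with nearly equal counts may hold the same reads, so the 651 groups are not all separate measurements. The usage test was run for each junction, so copies entered it separately.

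The sequences below show what the aligner faced at 4 of the groups with the most reads and at a gene with an internal copy. Each is 60 bases of GENCODE 29 transcript centred on the junction, with the exon after the junction in capitals. All 5 lie in coding sequence.
U2AF1: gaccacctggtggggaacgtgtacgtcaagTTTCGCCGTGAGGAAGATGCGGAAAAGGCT
U2AF1L5: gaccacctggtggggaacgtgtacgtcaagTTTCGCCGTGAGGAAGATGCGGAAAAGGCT
SMN1: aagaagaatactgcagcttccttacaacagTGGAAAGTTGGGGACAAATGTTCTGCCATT
SMN2: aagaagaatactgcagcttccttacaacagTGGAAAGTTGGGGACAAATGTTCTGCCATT
NOMO1: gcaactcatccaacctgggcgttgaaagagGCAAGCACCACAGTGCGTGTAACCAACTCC
NOMO3: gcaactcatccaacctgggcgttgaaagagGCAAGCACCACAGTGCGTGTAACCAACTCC
GTF2I: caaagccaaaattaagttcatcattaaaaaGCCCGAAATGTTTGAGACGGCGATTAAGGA
AP1B1: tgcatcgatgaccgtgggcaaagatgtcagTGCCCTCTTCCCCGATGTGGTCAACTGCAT
The junctions are at chr21:43094789-43095437 (U2AF1, minus strand) and chr21:6486456-6487106 (U2AF1L5, minus), chr5:70941509-70942357 (SMN1, plus) and chr5:70066085-70066933 (SMN2, plus), chr16:14848972-14852429 (NOMO1, plus) and chr16:16247468-16250927 (NOMO3, plus), chr7:74749452-74751360 (GTF2I, plus) and chr22:29359960-29419154 (AP1B1, minus), all in GRCh38. The paired sequences were identical over the 60 bases, and the GTF2I sequence recurs at GTF2IP1 and GTF2IP4.

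The members divided by their longest overhang, the number of bases aligned on the shorter side of the junction in the best read. In 128 members (16.7%) no read of any library reached beyond 10 bases, with a median of 4 and a minimum of 3 bases. In the other 640 the median was 74 bases of a maximum of 75. Only 11 of these 640 lay between 11 and 30 bases. Among the other 162157 annotated junctions with at least 20 reads, 0.337% had an overhang of at most 10 bases. The limit of 10 bases was chosen after the values were seen.

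**Figure D1:**
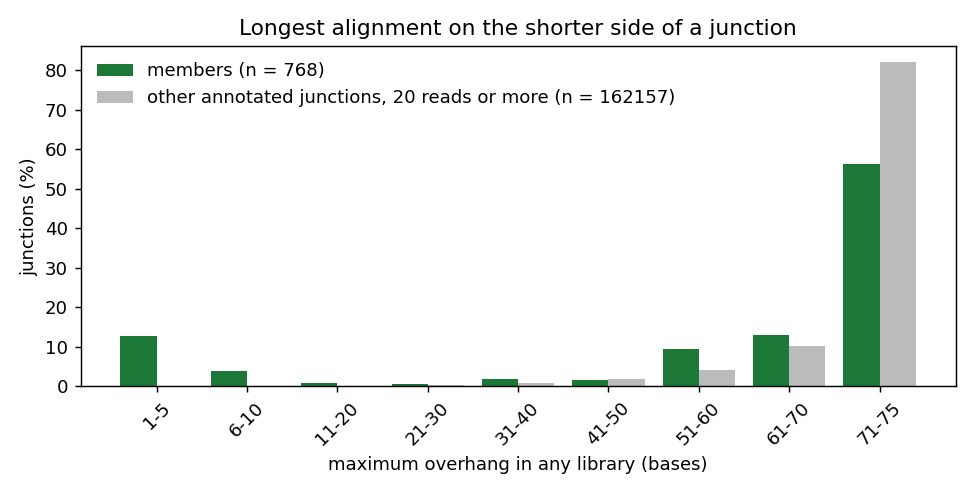
Longest overhang (bases, the maximum over the 8 libraries) of the members and of the other annotated junctions with at least 20 reads, as a percentage of the junctions in each set. Members have bars at both ends of the axis, with 128 at 10 bases or less, while the other junctions lie mostly at 71 to 75 bases.

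Most of the 640 members with longer overhangs had exact copies. For 634 of them (99.1%), the 50 bases centred on the junction were also found at another annotated junction. The same held for 3.0% of the other annotated junctions with at least 20 reads, and for 36.4% of those among them with at least 20 multi-mapped reads. A read with a long overhang is multi-mapped only where its bases fit another place. The high share in the members therefore follows largely from the rule. For 614 of the 634 the copy was in another gene, and for 20 it was in the same gene only. The copy lay on the same chromosome alone for 583 and also or only on another chromosome for 51. The median member had 3 other junctions with its 50 bases, 150 members had exactly 1, and 138 had 10 or more, up to 71. The 6 remaining members of the longer kind, without such a copy, were in ERF, TNC, NBPF12, GOLGA2P10, AC138969.1 and AL513314.2, named here after their values were seen.

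Members of a copy group had matching exons, while their introns could differ in length. Of the 103 groups with 2 or more members, 101 were identical over 75 bases on each side of the junction, or to the end of the transcript. In 35 of the 103 groups the introns differed in length, as in the NOMO1 and NOMO3 pair shown above. In 18 of the 103 all members lay in 1 gene, and whether these lie in tandem repeats was not examined. NBPF10, a gene of the neuroblastoma breakpoint family built from repeated domains, held 1 group with 4 junctions between chr1:146094066-146094779 and chr1:146108228-146108941, with 21 reads in all. NEB, which encodes the repetitive muscle protein nebulin, held a pair with 61 reads at chr2:151586510-151587373 and chr2:151597063-151597926.

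The 128 members with short overhangs had no such copy. None of the 119 with 50 bases of annotated exon around them had those bases at another junction. For 110 of the 128 (85.9%), the bases covered by the overhang were the same at another annotated junction that shares a splice site with the member and was read in these libraries. Such a match may be as short as 3 bases, and its rate at other junctions was not measured. Multi-mapped reads must also fit elsewhere by the rule, so this share is a description. Where several such junctions were found, the one with the most unique reads was taken as the competing junction. In 37 of the 110 that competing junction listed the same multi-mapped count as the member in every library. The competing junctions had a median of 1788 unique reads over the 8 libraries, 37.4 unique reads for each multi-mapped read of the member at the median. SENP2, a protease that removes the modifier SUMO, illustrates this. The sequences give 30 bases on each side of the junction, and capitals mark the bases before it that the member shares with its competitor.
SENP2 member: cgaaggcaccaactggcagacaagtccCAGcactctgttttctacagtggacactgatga
SENP2 competitor: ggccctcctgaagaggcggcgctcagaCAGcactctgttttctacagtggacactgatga
The SENP2 member, chr3:185582818-185590113 (plus strand), shared 3 bases, had an overhang of 3 bases and listed 33 reads. Its competitor, chr3:185586515-185590113, also listed 33 multi-mapped reads, and 1251 unique ones.

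Short-overhang members also differed in their splice sites. GC/AG introns made up 6.25% of them (8 of 128) and noncanonical introns 4.69% (6 of 128), whereas all 640 members with longer overhangs were GT/AG. Among the other annotated junctions with at least 20 reads, 98.8% were GT/AG and 0.986% GC/AG. The short-overhang members with the most reads were an intron with no GENCODE 29 host at chr7:44798852-44799388 (553 reads) and one in COX17, a copper chaperone of cytochrome oxidase, with 450 reads and an overhang of 3 bases.

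The rule also sets the reach of these data. There were 8 members with exactly 20 reads and 18 with 21, while 20 junctions just missed with 19 reads and 22 with 18. A further 281 annotated junctions with 20 or more multi-mapped reads were outside because of 1 unique read, and 173 because of 2. Including the members, 4611 annotated junctions had multi-mapped reads only.

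A few chromosomes held most members. The 768 members were on 24 chromosomes, but 137 (17.8%) were on chromosome 16, 126 (16.4%) on chromosome 1, 112 (14.6%) on chromosome 17 and 79 (10.3%) on chromosome 21. GENCODE 29 placed 762 members in introns of 334 genes, 232 of them protein coding, 74 pseudogenes and 19 lincRNAs. Of the 762, 425 joined coding exons, 252 noncoding exons and 85 untranslated exons. In 214 genes that hosted at least 1 member with a 50-base copy, a median of 92.8% of the gene's junction reads were multi-mapped, and 127 of the 214 exceeded 90%. In the 120 genes that hosted only short-overhang members the median was 0.877%. These shares include the members' own reads, which the rule makes all multi-mapped, so the contrast is partly set by the rule.

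A list of 41 families held 584 members. NBPF was the family with the most, 89 members in 69 copy groups, followed by TBC1D3, a hominoid-expanded family with a Rab GTPase-activating domain (74 in 61 groups), and NPIP, the nuclear pore complex interacting protein family of chromosome 16 (53 in 51). The RANBP2-like RGPD genes of chromosome 2 had 30 members, the golgin-like GOLGA genes 26, CBS and CBSL 25, and lincRNAs of the short arm of chromosome 21 had 24. Reads per group were unequal between families. The median group of RGPD had 1512 reads and that of the SMG1 pseudogenes 1294, against 105 for NBPF and 102 for TBC1D3. The NOMO genes, which encode an endoplasmic reticulum membrane protein, had a median of 5138 reads over 10 groups.

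Members took a small share of all junction reads, and the groups differed little in it. With each copy group counted once, the share of annotated junction reads was 0.153% ± 0.00214 in DMSO (SD, n = 4) and 0.156% ± 0.00182 in LMI070 (SD, n = 4). The difference of 0.00285 percentage points gave p = 0.0857 in a two-sided exact permutation test over the 70 assignments (0.0857 after Benjamini-Hochberg adjustment over 2 shares). The difference was 0.00462 points in lane 7 and 0.00108 points in lane 8, where 6 assignments cannot reach a p below 0.333. The share of multi-mapped counts in all junction counts, with a multi-mapped read counted at each address, was higher in each LMI070 library. It was 2.55% to 2.56% in LMI070 and 2.44% to 2.54% in DMSO. The same exact permutation test gave p = 0.0286, the smallest that 4 against 4 allows, and 0.0571 after adjustment.

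No copy group passed the test of level. Level was tested with edgeR's quasi-likelihood method, with lane as a covariate, over 162808 rows (651 copy groups and the other annotated junctions with at least 20 reads). The adjusted p was under 0.05 for 0 of 651 groups in either direction. Over all rows tested, 0.206% were called, 0.0989% higher and 0.107% lower in LMI070. At an unadjusted p under 0.05 there were 37 of 651 groups (5.68%), 24 higher and 13 lower, against 7.52% of all rows, and DESeq2 called 0, with 6 groups at an unadjusted p under 0.05. All 4 LMI070 libraries were above all 4 DMSO libraries in 12 groups (1.84%, against 1.59% of all rows) and below them in 7 (1.08%, against 1.72%). The median log2 fold change was 0.02 over the groups and 0.00 over all rows.

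Depth set what could be seen. The 90 groups with at least 1000 reads had a median standard error of 0.09 on the log2 scale, and their log2 fold changes lay between -0.16 and 0.30. The interval of 2 standard errors of these 90 reached at most 0.49 upward and -0.37 downward. The 337 groups under 100 reads had a median standard error of 0.53 and log2 fold changes from -2.24 to 2.03.

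**Figure D2:**
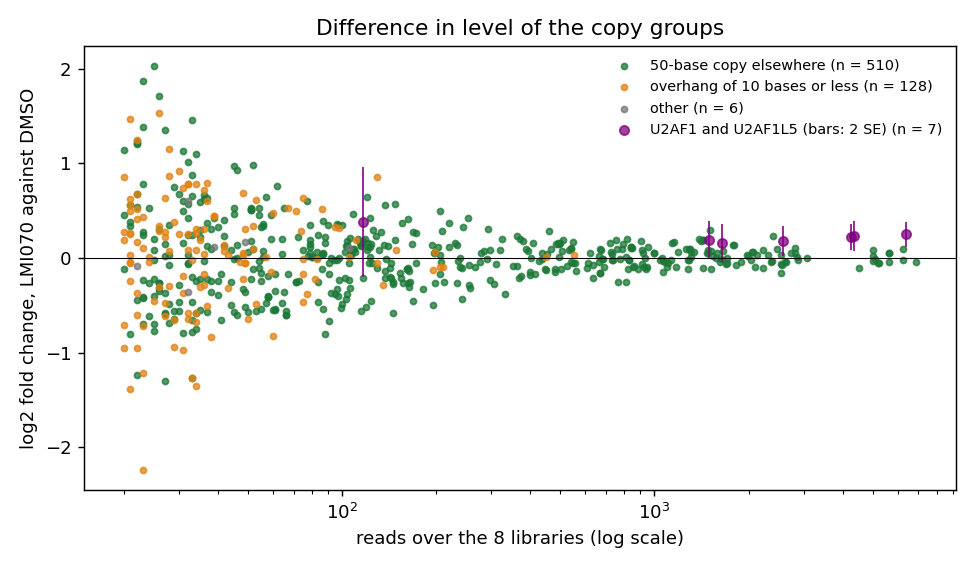
Log2 fold change of LMI070 against DMSO for the 651 copy groups, against the reads of each group over the 8 libraries (log scale). Points narrow from a range of -2.24 to 2.03 under 100 reads to -0.16 to 0.30 at 1000 reads or more, and the 7 groups of U2AF1 and U2AF1L5, with bars of 2 standard errors, all lie above 0.

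The group with the most reads was a coding junction of GTF2I, the transcription factor TFII-I, with 6870 reads. It was at 34.5 ± 1.67 CPM in DMSO and 33.5 ± 1.09 in LMI070 (SD, n = 4 each). Its log2 fold change was -0.04 with a standard error of 0.06. The NOMO1 and NOMO3 junction shown above was at 31.3 ± 2.46 CPM in DMSO and 30.9 ± 1.88 in LMI070 (SD, n = 4 each), with a log2 fold change of -0.02 and a standard error of 0.06. In both, the libraries of the groups overlapped.

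**Figure D3:**
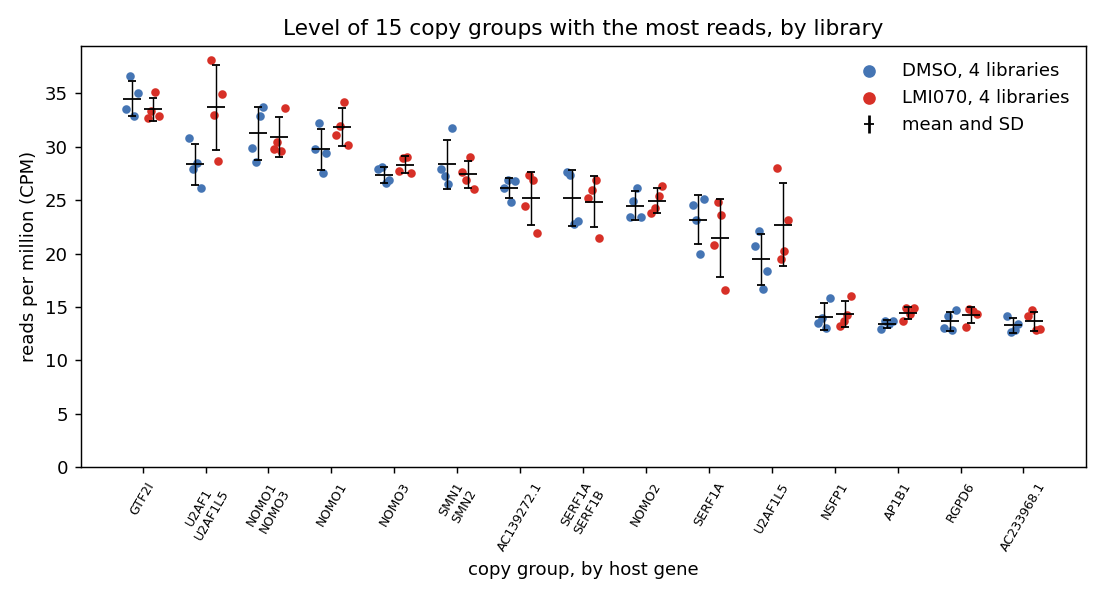
CPM in each library for the 15 copy groups with the most reads, at most 1 for each set of host genes, with the mean and SD of each group of 4 libraries. Libraries of the 2 groups overlap in 14 of the 15, and in AP1B1 the LMI070 libraries lie above the DMSO libraries.

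U2AF1 stood first by its p-value. U2AF1 encodes the small subunit of U2AF, the factor that recognises the AG at the end of an intron, and U2AF1L5 is its copy on the short arm of chromosome 21, a region reported as a duplication error of the GRCh38 assembly. The 2 copies had 12 members in 7 copy groups, with 117 to 6372 reads. Of their 10 junctions with 50 reads or more, 5 in U2AF1 and 7 in U2AF1L5 were members. The other junctions had between 1 and 22 unique reads against 1497 to 6417 multi-mapped ones. All 7 log2 fold changes were positive, from 0.16 to 0.38, with a median of 0.22. An unadjusted p under 0.05 by edgeR was found in 4 of the 7, against 7.52% of all rows. The 7 groups are junctions of the same 2 copies in the same libraries, so they are not 7 separate measurements. None passed after adjustment.

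The junction shown above (6372 reads) had 30.8, 27.9, 28.5 and 26.2 CPM in DMSO libraries 9 to 12, and 38.2, 33.0, 28.7 and 34.9 CPM in LMI070 libraries 13 to 16. LMI070 library 15 was within the DMSO range and the other 3 were above it. Its log2 fold change was 0.25 with a standard error of 0.07, at an adjusted p of 0.103 by edgeR, the smallest of all 651 groups. Over the alternative fits that adjusted p ranged from 0.0124 in lane 7 alone to 1.00 by DESeq2. The call was made without a filter on low counts (adjusted p = 0.0279), without DMSO library 9 (0.0363) and without LMI070 library 15 (0.0178). Apart from lane 7 alone, no other alternative made it. Without LMI070 library 13 the log2 fold change was 0.19, with an adjusted p of 0.721 by edgeR. The adjusted p was 0.590 without DMSO library 12 and 0.437 without the lane term, both by edgeR. The next junction downstream, with 4257 reads, was at chr21:43094564-43094654 and chr21:6486231-6486321. Its level was 19.2 ± 0.404 CPM in DMSO and 22.3 ± 1.77 in LMI070 (SD, n = 4 each). The lowest LMI070 library was above the highest DMSO library, with a log2 fold change of 0.22, a standard error of 0.07 and an adjusted p of 0.269 by edgeR.

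The lanes differed at U2AF1. In lane 7 the log2 fold change of the first junction was 0.42 with a standard error of 0.10, and in lane 8 it was 0.08 with a standard error of 0.06. The difference between lanes, tested as a lane by treatment term in edgeR, did not pass (adjusted p = 0.285). The junction from the proximal alternative exon described next is a member at chr21:6487413-6492130 of U2AF1L5. The same 4357 multi-mapped reads were listed at chr21:43095744-43100452 of U2AF1, so neither address shows from which copy they came. The log2 fold change of this junction was 0.55 in lane 7 and -0.11 in lane 8. That difference of -0.67 (standard error 0.13) passed, with an adjusted p of 0.00162 by edgeR. It was the 1 group of 651 that did, while 0.265% of all rows were called for this term. In lane 7 its 2 LMI070 libraries had 28.0 and 23.2 CPM against 16.7 and 18.4 in DMSO. In lane 8 the LMI070 libraries had 19.5 and 20.2 CPM against 20.7 and 22.1 in DMSO.

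**Figure D4:**
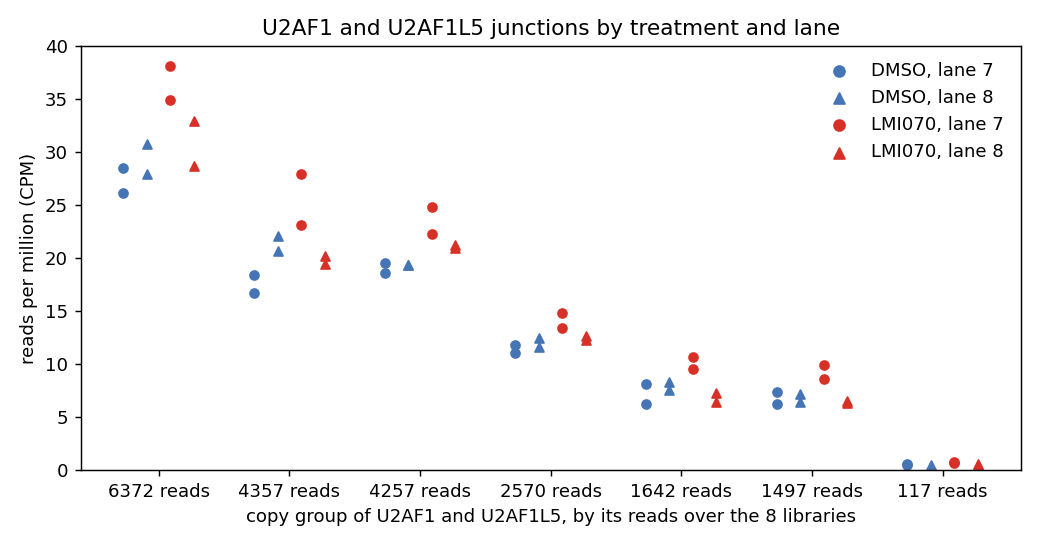
CPM of the 7 copy groups of U2AF1 and U2AF1L5 in each library, by treatment and sequencing lane, with each group labelled by its reads over the 8 libraries. In the group with 4357 reads the LMI070 libraries of lane 7 (28.0 and 23.2 CPM) are above the DMSO libraries of the lane (16.7 and 18.4), and those of lane 8 (19.5 and 20.2) are below theirs (20.7 and 22.1).

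U2AF1 pre-mRNA carries 2 mutually exclusive alternative exons, which give protein isoforms. Proximal here means nearer the common downstream exon, so the distal exon comes before the proximal one in transcript order. They are 67 bases each and share 44 bases (65.7%) with no gap. The sequences follow, from chr21:43100453-43100519 and chr21:43101366-43101432 (minus strand), with the 23 differing bases in capitals.
U2AF1 proximal exon: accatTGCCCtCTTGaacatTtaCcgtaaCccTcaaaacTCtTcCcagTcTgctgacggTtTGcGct
U2AF1 distal exon: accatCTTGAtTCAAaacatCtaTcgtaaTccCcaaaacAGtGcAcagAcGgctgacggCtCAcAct
The junction from the proximal exon to the common downstream exon had 4357 reads and that from the distal exon 1642. The junction that joins the 2 alternative exons to each other had 117 reads. Usage (a junction's reads as a percentage of the reads at its splice sites) was 71.9% ± 1.85 in DMSO and 72.8% ± 3.25 in LMI070 (SD, n = 4 each) for the proximal exon junction of U2AF1, which had 1 unique read. The difference of 0.856 points was smaller than the spread. The distal exon junction had a log2 fold change of 0.16 with a standard error of 0.10.

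SMN1 and SMN2, which encode the survival motor neuron protein of snRNP assembly, had 8 members in 4 copy groups, all coding and all in the 5′ part of the genes. The main 3 joined exons at chr5:70925185-70938838, chr5:70938911-70941388 and chr5:70941509-70942357 in SMN1, with 3086, 4993 and 5630 reads. The same counts were listed at the SMN2 copies, chr5:70049767-70063414, chr5:70063487-70065964 and chr5:70066085-70066933. The junction with the most reads had 27.9, 27.2, 26.5 and 31.7 CPM in DMSO libraries 9 to 12 and 27.7, 26.9, 29.01 and 26.1 CPM in LMI070 libraries 13 to 16. The libraries overlapped, and the log2 fold change was -0.05 with a standard error of 0.07. Over the 4 groups the log2 fold changes lay between -0.05 and 0.00, and 0 of 4 had an unadjusted p under 0.05. The group with 122 reads, which skips the exon between chr5:70942357 and chr5:70942559 in SMN1, had a standard error of 0.29.

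Unique reads outnumbered multi-mapped ones at 2 of the 12 junctions of SMN1 and of SMN2, those on either side of exon 7. At the exon 6 to exon 7 junction the copies differ by 1 base in the 60 bases around it, C36T from SMN1 to SMN2 counted from the first base shown, which is base 6 of exon 7. That base is in capitals.
SMN1 exon 6 to 7: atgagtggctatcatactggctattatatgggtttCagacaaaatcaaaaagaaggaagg
SMN2 exon 6 to 7: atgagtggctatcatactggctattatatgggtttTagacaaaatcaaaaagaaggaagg
This junction had 2277 unique and 21 multi-mapped reads in SMN1 and 1406 unique and 22 multi-mapped reads in SMN2. The junction that skips exon 7 lacks the base and just missed the rule, with 599 multi-mapped reads at each copy, 4 unique reads at SMN1 and 11 at SMN2. Its multi-mapped reads were 399 in DMSO and 200 in LMI070. At the SMN2 address its log2 fold change was -1.10 with a standard error of 0.14 (edgeR's adjusted p = 4.25e-08), and its usage was 20.8% ± 1.66 in DMSO and 9.06% ± 0.208 in LMI070 (SD, n = 4 each). The same reads are listed at SMN1, so neither address shows from which gene they came.

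**Figure D5:**
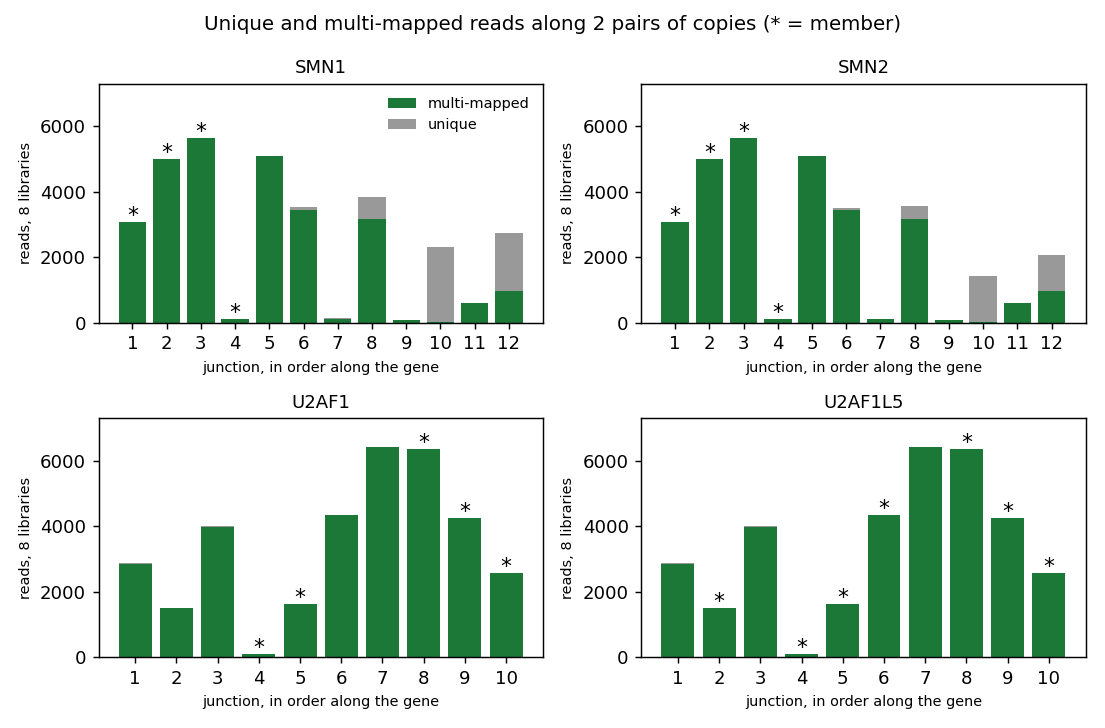
Multi-mapped and unique reads over the 8 libraries at each annotated junction with 50 reads or more, in order along SMN1, SMN2, U2AF1 and U2AF1L5, with members marked by asterisks. In SMN1 and SMN2 the members are the first 4 junctions and unique reads dominate at the tenth (2277 and 1406), while in U2AF1 and U2AF1L5 multi-mapped reads make up at least 99.2% at every junction.

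SERF1A and SERF1B, small EDRK-rich factor genes beside SMN1 and SMN2 on chromosome 5, had 7 members in 4 groups, 1 of them at an unadjusted p under 0.05. Their group with the most reads (5075) was at 25.2 ± 2.66 CPM in DMSO and 24.9 ± 2.34 in LMI070 (SD, n = 4 each), with a log2 fold change of -0.01 and a standard error of 0.07. NAIP copies, of a family of apoptosis inhibitors, had 13 members in 10 groups, with log2 fold changes from -0.53 to 0.37 and 0 of the 10 at an unadjusted p under 0.05. GUSB pseudogenes had 6 groups with log2 fold changes from -0.06 to 0.05.

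CD276 and AP1B1 had their copies inside the gene. CD276 encodes the immune checkpoint protein B7-H3, whose longer form repeats a pair of immunoglobulin domains. The member, chr15:73702594-73704175, skips 1 pair and had 1621 reads, and its 50 bases recur at 2 other junctions of the gene. It was at 7.83 ± 0.473 CPM in LMI070 and 8.11 ± 1.47 in DMSO (SD, n = 4 each), with a log2 fold change of -0.04 and a standard error of 0.10. AP1B1, a clathrin adaptor subunit, has a second junction at the member's acceptor, chr22:29359960-29363000, with the same 60 bases. It listed 2825 multi-mapped and 439 unique reads beside the member's 2822. The member was at 13.4 ± 0.350 CPM in DMSO and 14.5 ± 0.572 in LMI070 (SD, n = 4 each). The libraries did not overlap, with LMI070 higher, a log2 fold change of 0.10, a standard error of 0.08 and an adjusted p of 0.810 by edgeR.

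The groups next in order of p-value had fewer reads or lay in other families. A pseudogene junction, AC138969.1 at chr16:16372107-16372286, whose bases recur at NPIPA1 and PKD1P1, was at 6.60 ± 0.987 CPM in DMSO and 8.08 ± 0.358 in LMI070 (SD, n = 4 each), without overlap, with a log2 fold change of 0.30 and an adjusted p of 0.307 by edgeR. Over all 128 short-overhang groups, 7 (5.47%) had an unadjusted p under 0.05 by edgeR, against 7.52% of all rows. The libraries did not overlap in 1 of the 128 with LMI070 higher and in 2 with LMI070 lower. Over all rows these shares were 1.59% and 1.72%. Lower in LMI070, none past the test, were short-overhang members of KAT7, a histone acetyltransferase (19 and 4 reads), SWAP70, a regulator of actin (24 and 10) and SENP2 (23 and 10). To these come a junction of the pseudogene BX005040.4 (23 and 10 reads) and one of GOLGA6L3, a golgin-like gene (84 and 62). KAT7 had 8, 0, 6 and 5 reads in DMSO and 0, 2, 0 and 2 in LMI070, so the groups overlapped, and its log2 fold change of -2.24 had a standard error of 0.77 and an adjusted p of 0.374 by edgeR.

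The 41 families had 0 called copy groups. Among families with at least 10 groups, named here after their values were seen, the share of log2 fold changes above 0 was highest in subtelomeric lincRNAs (15 of 16, median 0.19). ANKRD20A, a family of ankyrin repeat genes, followed with 12 of 15 and a median of 0.40, and GOLGA with 20 of 26 and a median of 0.20. It was lowest in RGPD (6 of 27, median -0.09), the lincRNAs of the short arm of chromosome 21 (4 of 14, median -0.04) and CBS with CBSL (5 of 14, median -0.09). The families with the most groups lay between: NBPF had 28 of 69 above 0 with a median of -0.05, and TBC1D3 31 of 61 with a median of 0.01. Groups of a family share loci and reads, so these counts describe them and are no test. In RGPD the lanes also differed: of the 10 groups called between lanes (1.54%, against 1.12% of all rows), 4 were in RGPD1, RGPD2 and RGPD3.

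Choice of splice site was tested for 487 members in 417 copy groups that compete with another junction at a shared site with enough reads. Copies of a group were tested separately here, so the members are not all separate measurements. A call required a shift of 10 points or more beside an adjusted p below 0.05. No member was called, against 0.0529% of the 120875 junctions tested (0.0215% higher and 0.0314% lower in LMI070). At an unadjusted p under 0.05 there were 11 of 487 (2.26%, against 2.96% of all junctions), and DESeq2 called 0, with 4 at an unadjusted p under 0.05. In DMSO the 366 tested members with a 50-base copy had a median usage of 93.0%, and the 117 short-overhang members 1.96%. The smallest p belonged to KAT7, whose usage was 2.49% ± 1.82 in DMSO and 0.505% ± 0.589 in LMI070 (SD, n = 4 each), with an adjusted p of 0.973 by edgeR. The same adjusted p was found for GOLGA6L3 at chr15:85243022-85243206 (98.3% ± 1.96 and 88.6% ± 9.39), AC139272.1 (95.5% ± 1.48 and 97.9% ± 0.665), GOLGA6L4 (90.6% ± 4.31 and 99.0% ± 1.92) and SWAP70 (8.45% ± 3.53 and 3.15% ± 1.48), each as DMSO then LMI070.

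The host genes could be examined apart from the members where they had unique reads. Of 334 host genes, 227 were tested on their uniquely mapped junction reads, and 21 had no unique read at all. One was called, PDXDC1, a pyridoxal-dependent decarboxylase domain gene, which was lower in LMI070 at 162 ± 6.03 CPM against 270 ± 3.90 in DMSO (SD, n = 4 each). Its log2 fold change was -0.74 with a standard error of 0.04 and an adjusted p of 1.56e-09 by edgeR. Over all 13649 genes tested, 0.132% were called. PDXDC1 hosts a short-overhang member with 34 reads, and none of the 107 tested hosts of a 50-base copy was called, 4 of them having an unadjusted p under 0.05. SMN2 was at 13.8 ± 1.59 CPM in DMSO and 17.9 ± 0.845 in LMI070 (SD, n = 4 each) on unique reads, with a log2 fold change of 0.37, a standard error of 0.09 and an adjusted p of 0.165 by edgeR, and SMN1 had a log2 fold change of -0.03 with a standard error of 0.07.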

How the data were processed

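The deposited files are STAR junction tables, 1 for each library, of total RNA with ribosomal RNA depletion. The authors deposited whole-number counts per junction: uniquely mapped reads, multi-mapped reads and the maximum overhang. STAR 2.6.0c and GRCh38 come from the submitters' processing notes, and other settings are not given in the sources used here. A multi-mapped read is counted at each of its addresses, so counts of copies are not separate measurements. Junctions were matched to GENCODE release 29 introns. The members and lists were chosen with earlier results of these data known.

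Levels (unique plus multi-mapped counts, each copy group once, rows with at least 20 reads) were tested with edgeR 4.0.16 quasi-likelihood fits (TMM, lane and treatment) in R 4.3.3, with Benjamini-Hochberg adjustment over the whole table. CPM used TMM-scaled totals. Usage set each junction against the others at its splice sites, with at least 10 reads per library, in a paired-count edgeR fit. Host genes were tested on unique reads after filterByExpr. DESeq2 1.42.0 was an alternative. Fits were tested on simulated data. Permutation tests used scipy 1.17.1. Named groups were the 15 with the most reads (1 for each set of hosts), the 5 smallest p-values each way, the 5 with the most junctions, the 5 smallest usage p-values and the group with the most reads of each family. Depth is in the results, and intervals of 2 standard errors describe library spread. One of the groups with the smallest p-values is not reported here. The lane comparisons and the overhang limit were added after seeing the data.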

Additional observations from a re-analysis of the deposited data

Results flagged for a closer look

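One library stood apart from the other 3 of its group in 7 of 126 groups of 4 checked, where chance gives about 1 in 20. They were U2AF1 at chr21:43094564-43094654 (DMSO library 12, 18.6 CPM), SMIM11A and SMIM11B (DMSO library 11, 8.49 CPM), AC138969.1 (DMSO library 12, 5.12 CPM) and AC139495.1 (LMI070 library 13, 1.49 CPM). The others were the chromosome 21 lincRNA group CU633904.1, CU633967.1 and CU634019.1 (LMI070 library 13, 1.03 CPM) and ANKRD20A2 (DMSO library 10, 0.706 CPM, and LMI070 library 16, 0.586 CPM).

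The response of the proximal alternative exon junction listed at U2AF1L5, whose multi-mapped reads are also listed at U2AF1, differed between the lanes. Its log2 fold change was lower by 0.669 in lane 8 than in lane 7 (-0.67 as lane 8 minus lane 7).

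Junctions absent from the annotation were not themselves tested. Their reads did enter 2 measures: usage, as competing junctions at a shared site, and the share of multi-mapped counts in all junction counts. Of 1857 with at least 20 multi-mapped reads, 3 had at most 1 such read in DMSO and 0 had at most 1 in LMI070. One, in the pseudogene DUXAP9 at chr14:19093007-19094555, had 67 multi-mapped reads in LMI070 (20, 24, 16 and 7 in libraries 13 to 16) and 0 in DMSO, with 33 and 2 unique reads. The others are a copy pair, OCLN, which encodes the tight junction protein occludin, at chr5:69534840-69544505 and OCLNP1 at chr5:71083391-71093046. Each listed the same 25 multi-mapped reads in LMI070 (6, 7, 4 and 8) and 0 in DMSO, with 5 and 0 unique reads. These were picked by their counts, with no test.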

How the results depend on the processing

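The count of copy groups called higher was 0 in the reported fit, 1 without a filter on low counts and 2 in lane 7 alone, all in U2AF1 and U2AF1L5, and 0 to 1 when each library was left out. It was 0 under the other alternatives, and 0 groups were called lower and 0 members in usage under any alternative run. The number of copy groups was 314 at a minimum of 100 reads and 1057 with up to 2 unique reads. Host genes were tested on unique reads, which for SMN2 were mainly at the junctions of exon 7. Host genes called were 2 higher and 2 lower without a filter on low counts (TYMS and SMN2, and PDXDC1 and ANXA6). By DESeq2 they were 1 higher and 2 lower (SMN2, and PDXDC1 and ANXA6). Leaving out a library gave 1 to 2 lower, the 2 (with ANXA6) without DMSO library 12. Of 61 named groups, 23 had the other sign in 1 lane (10 in lane 7, 13 in lane 8). In 6 of them the reported log2 fold change exceeded its standard error: in lane 8 alone SERF1A to 0.0295, U2AF1L5 to -0.11, PKD1P1 to -0.14, GOLGA6L4 to -0.54 and NBPF10 to 0.0846, and in lane 7 alone SLX1A to -0.0361 (log2 fold changes, none called). The cause was not tested. No paired analysis was possible because the replicate numbers of the groups do not overlap. Depth limits most groups: 337 of 651 had under 100 reads.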
